A study of Mus musculus with 2 samples.

Results

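The genes described here are 4 members of the fibroblast growth factor (FGF) pathway: the ligand gene Fgf8, the receptor gene Fgfr1 and the genes Spry4 and Spry2, which encode Sprouty inhibitors of the pathway. The peaks assigned to them are those of a deposited list whose midpoint lies within 100 kb of the gene body on the mouse build mm9. They number 8 of the 4087 peaks in the list: 5 at Spry4, 2 at Spry2, 1 at Fgfr1 and 0 at Fgf8. The genes were chosen with the list known and the peaks were selected on their measured position, so the counts, positions and scores below are a description and no test is attached to them.

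The list comes from chromatin immunoprecipitation followed by sequencing (ChIP-seq) of Msgn1 (mesogenin 1), a transcription factor of the basic helix-loop-helix class that acts in presomitic mesoderm, the tissue that buds off the somites. The A2lox FMsgn1 line of mouse embryonic stem cells (strain C57BL/6 per the labels) carries a FLAG-tagged Msgn1 that doxycycline switches on. The cells were kept on fibroblast feeders and differentiated as embryoid bodies for 2 days, after which 1 ug/ml doxycycline was added for 36 h. One library holds DNA recovered with the anti-FLAG M2 antibody and the other holds input DNA of the same doxycycline-treated condition, with no antibody. Each group has 1 library, and the values therefore carry no error between replicates. Both libraries come from 1 line in which the tagged factor was induced, and neither is a FLAG immunoprecipitation from cells without induction. The peaks are therefore places where more DNA was recovered with the anti-FLAG antibody than in input from induced cells, and whether the tagged factor was bound at each of them was not tested.

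FGF ligands bind receptor tyrosine kinases at the cell surface, which switch on the Ras and MAP kinase cascade. In the presomitic mesoderm Fgf8 is made at the tail end of the embryo, its activity declines towards the head, and Fgfr1 is the main receptor that reads it. Sprouty proteins are induced by this signalling and dampen it inside the cell, so that Spry2 and Spry4 are both targets and brakes of the pathway. Msgn1, like other factors of its class, binds short DNA elements called E-boxes. Sequences of the peaks and motifs in them were not analysed here, because no mm9 genome was used.

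By role in the pathway, the Sprouty genes had 7 of the 8 peaks, the receptor had 1 and the ligand had none. Of the 7, 5 were at Spry4, 4 of these within 13.0 kb, and Spry2 had 2. The count by role thus rests largely on 1 gene, and no difference between roles is read from it. As a background, the autosomes were cut into consecutive windows as long as each gene's own window (the gene and 100 kb on either side), whether or not they held a gene. At least 1 peak was present in 26.6% of windows of the length used for Spry4, 25.6% for Spry2, 25.8% for Fgf8 and 30.5% for Fgfr1. The presence of a peak at 3 of 4 genes stands beside these shares, but the genes were picked with the peaks known, so nothing is read from it. Windows around genes may hold more peaks than windows placed anywhere, and this was not examined.

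Each peak carries a score given by the authors. Its scale is not stated, so it serves here only to order peaks within the list. The scores of the 8 peaks lay between 82.8 and 478 (median 108), and those of the whole list between 50 and 1107 (median 72.8). All 8 peaks scored above the list's median. Of the 8, 4 scored at least 100, as did 28.6% of all peaks. Peak widths at the 4 genes ran from 637 to 1354 bp with a median of 917 bp, against 678 bp in the list. Of the 8, 7 were wider than the list's median. A group of 4 of the 8 peaks lay within 13.0 kb at Spry4, so the peaks are not separate cases. No trait shared by the 4 genes is read from these counts.

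**Figure D1:**
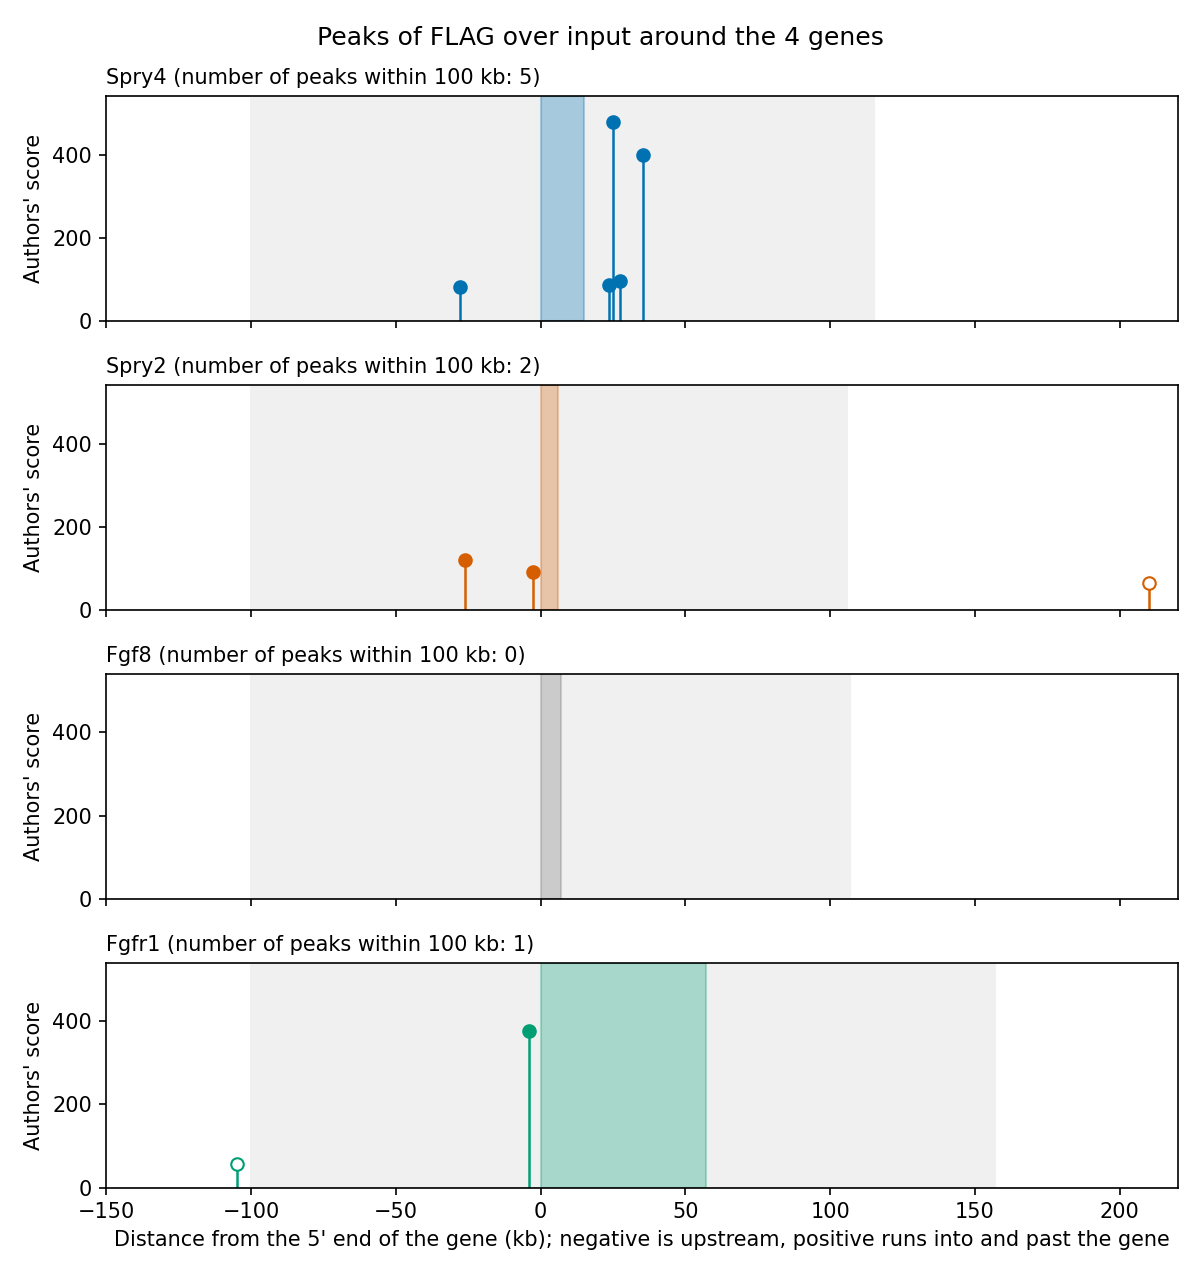
Authors' score of each peak (vertical axis, scale not stated) against the distance of its midpoint from the 5′ end of the gene in kb (horizontal axis, oriented so that transcription runs to the right), for Spry4, Spry2, Fgf8 and Fgfr1. The coloured block is the gene, the grey block is the 100 kb limit, filled points are peaks inside the limit and open points lie outside it; the 2 high peaks at Spry4 lie past its 3′ end, the Spry2 and Fgfr1 peaks lie before the 5′ end, and Fgf8 has none.

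Spry4 had the most peaks and the highest-scoring one of the 4 genes. The gene lies on chromosome 18, from 38746 to 38761 kb, and is transcribed towards lower coordinates. Distances below run from the peak's midpoint to the nearer end of the gene. The gene ends are known here to the nearest 1 kb only, so distances carry that rounding. The highest peak, chr18:38735438-38736487, was 1050 bp wide, scored 478 and ranked 30th of the list. It lay 10.0 kb past the 3′ end of Spry4. The second, chr18:38724828-38726181, was the widest of the 8 at 1354 bp, scored 400.1 and ranked 56th. It lay 20.5 kb past the same end.

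A pair of lower peaks flanked the highest one. The peak chr18:38736917-38737821 was 905 bp wide, scored 87.6 and lay 8.6 kb past the 3′ end, at a gap of 0.429 kb from the highest. The peak chr18:38733077-38734119 was 1043 bp wide, scored 97.0 and lay 12.4 kb past that end, at a gap of 1.32 kb from the highest. These 4 peaks thus fell within 13.0 kb on the 3′ side, with scores of 400.1 and 478 for the highest pair and 87.6 and 97.0 for the other pair. With peaks less than 1 kb apart joined, the highest peak and its closer neighbour became 1, and Spry4 had 4 peaks.

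The remaining Spry4 peak stood alone on the other side. It lay at chr18:38788396-38789213, 27.8 kb before the 5′ end, with a width of 818 bp and a score of 82.8, the lowest of the 8. No peak of the list fell inside the Spry4 gene body. On this 5′ side the next protein-coding gene in the RefSeq table of GRCm38.p6 is Arhgap26, and the gene of the FGF ligand Fgf1 follows further on. On the 3′ side the next is Ndfip1, which encodes an adaptor of ubiquitin ligases. The positions of these neighbours were not carried over to mm9, so whether a peak lies inside one of them was not analysed here. Assignment of a peak to Spry4 is by distance alone.

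Outside the limit, the next peaks at Spry4 lay at distances within the range of those at the other genes, 105 to 1635 kb. The next peak on the 3′ side was 285 kb from the gene and scored 129, and the next on the 5′ side was 918 kb away and scored 52.0. Within 500 kb of Spry4 there were 6 peaks, 5 of them the ones already described. At least 5 peaks were found in 25 of 11017 autosomal windows of 215 kb, or 0.227%. Spry4 was picked with its peaks known, and 4 of its 5 peaks lay within 13.0 kb. Nothing is therefore read from this share.

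**Figure D2:**
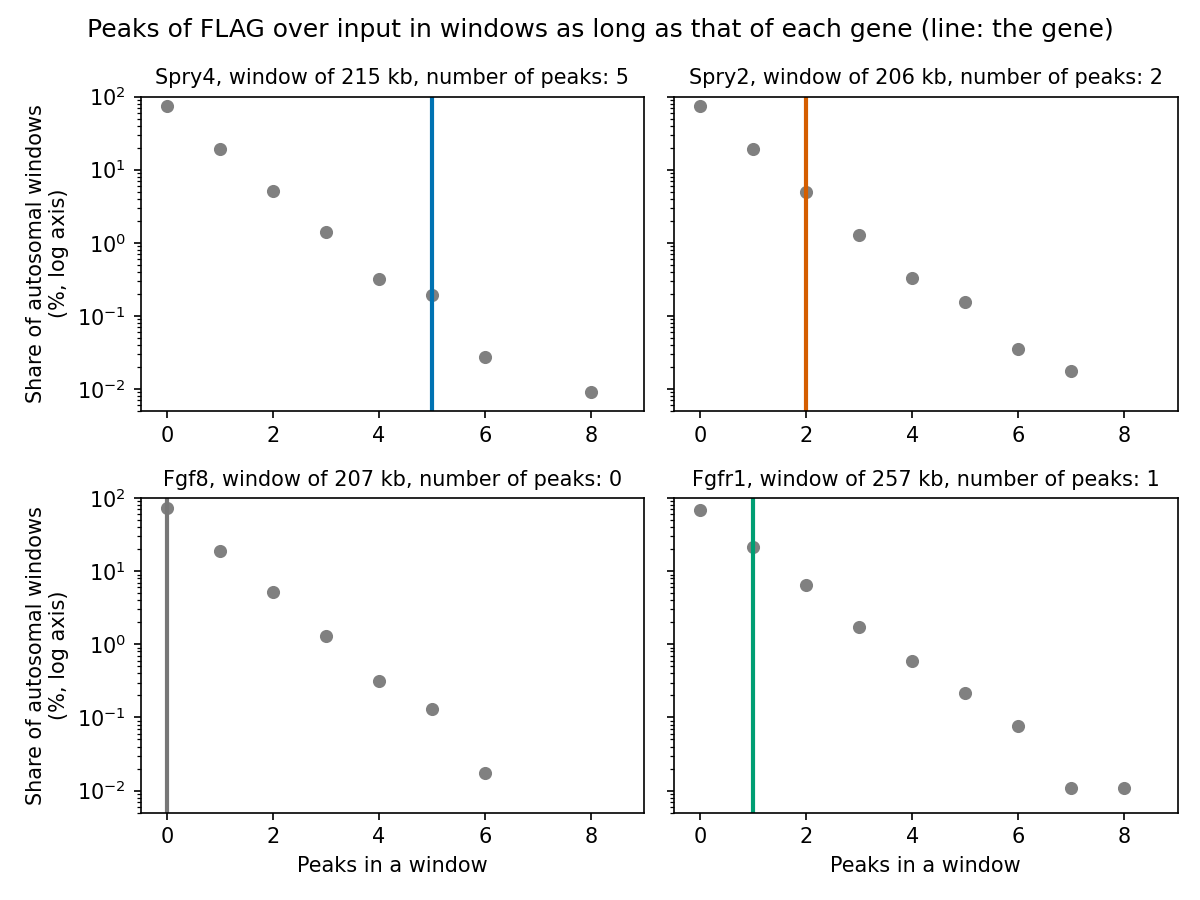
Share of autosomal windows (vertical axis, percent, log axis) by the number of peaks they hold (horizontal axis), for windows as long as that of each gene; grey points are the windows and the coloured line is the gene's own number of peaks. The lines of Fgf8 and Fgfr1 stand at 0 and 1 peaks, the 2 most frequent numbers, and that of Spry4 stands at 5, where few windows lie. The genes were picked with their peaks known, so nothing is read from where the lines stand.

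Spry2, the other Sprouty gene, had 2 peaks, both on its 5′ side and both of modest score. The gene lies on chromosome 14, from 106290 to 106296 kb, and is transcribed towards lower coordinates. The peak chr14:106298382-106299018 was 637 bp wide, scored 91.2 and ranked 1384th. At 2.7 kb before the 5′ end, its midpoint was the closest of all 8 to the gene it was assigned to. The peak chr14:106321769-106322534 was 766 bp wide, scored 119, ranked 851st and lay 26.2 kb before the 5′ end. The gap between them was 22.8 kb, wider than any gap within the group on the 3′ side of Spry4.

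No peak was listed inside Spry2 or within 100 kb past its 3′ end. The next peak on that side was 204 kb from the gene and scored 65.8, and the next on the 5′ side was 1635 kb away and scored 72.8. At least 2 peaks were present in 6.69% of autosomal windows of 206 kb. In the RefSeq table the next protein-coding genes are Ndfip2 on the 3′ side, a relative of the Ndfip1 gene next to Spry4, and Trim52 on the 5′ side.

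The 2 Sprouty genes thus differed in where the list placed peaks and in how those peaks ranked. The highest-scoring peak ranked 30th at Spry4 and 851st at Spry2. The Spry4 maximum lay past the 3′ end and the Spry2 peaks lay before the 5′ end. Spry4 also had a lower peak 27.8 kb before its 5′ end, a distance close to the 26.2 kb of the farther Spry2 peak. With 1 library per group, no error can be put on the difference in rank.

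Fgfr1, the receptor gene, had a single peak within the limit, and it ranked high in the list. The gene lies on chromosome 8, from 26629 to 26686 kb, and is transcribed towards higher coordinates. The peak chr8:26624488-26625416 was 929 bp wide, scored 377 and ranked 65th of the list. It lay 4.0 kb before the 5′ end. No peak was listed inside the 57 kb gene body. Other starts of transcription of Fgfr1 were not analysed here, so the distance refers to the gene end of the stated interval.

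Fgfr1 was the 1 gene of the 4 with a peak close to the limit. A low-scoring peak, chr8:26523816-26524719, with a width of 904 bp and a score of 55.8, lay 105 kb before the 5′ end, just outside it. Of the peaks inside, the farthest from its gene was the one at 27.8 kb from Spry4. On the 3′ side of Fgfr1 the next peak was 708 kb away and scored 113. Windows of 257 kb with at least 1 peak are common, at the 30.5% given above, while those with a peak that scored at least 100 made up 10.7%. The corresponding shares were 9.29% for the window length of Spry4 and 8.92% for that of Spry2, both of which also held such a peak, and 8.93% for that of Fgf8, which did not. The neighbouring protein-coding genes in the RefSeq table are Letm2 and then Nsd3, a histone methyltransferase gene, on the 3′ side, and Gm39147 on the 5′ side.

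Fgf8, the ligand gene, had no peak within the limit. The gene lies on chromosome 19, from 45810 to 45817 kb, and is transcribed towards lower coordinates. The nearest peak, chr19:45385636-45386440, scored 80.6 and lay 424 kb past the 3′ end. On the 5′ side the nearest peak, chr19:46297712-46298459, scored 73.5 and lay 481 kb away. Both scores were near the list's median. A window of 207 kb without any peak was the usual case, since 74.2% of autosomal windows of that length had none. At a limit of 500 kb, where Fgf8 had 2 peaks, 32.6% of windows of that length had none. The list gives no height for places that did not pass the authors' threshold and the sequencing depth is unknown. Weaker recovery at Fgf8 could therefore not be detected, and its absence from the list does not show that Msgn1 was absent there.

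The genes around Fgf8 in the RefSeq table are Fbxw4 on the 3′ side and Npm3 and Oga on the 5′ side. Within 500 kb of Fgf8 there were 2 peaks, as many as around Fgfr1, against 4 around Spry2 and 6 around Spry4. Within 1000 kb the numbers were 4 for Fgf8, 3 for Fgfr1, 6 for Spry2 and 7 for Spry4. These counts include the peaks within 100 kb, and no difference between the scales is read from them.

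**Figure D3:**
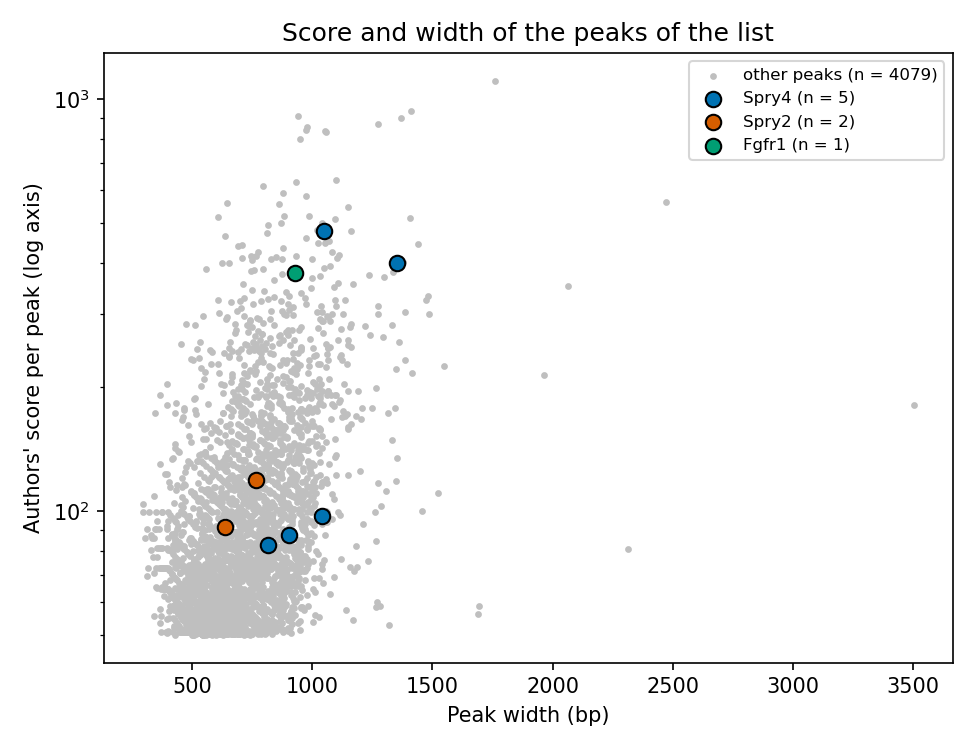
Authors' score (vertical axis, log axis, scale not stated) against width in bp (horizontal axis) for each peak of the list; coloured points are the peaks at Spry4, Spry2 and Fgfr1 and grey points are the other 4079. The Spry4 pair and the Fgfr1 peak, scored from 377 to 478, stand well above the other 5 coloured points, which lie between 82.8 and 119.

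None of the 8 peaks scored between 119 and 377. The peaks with these scores ranked 851st and 65th of 4087, so most of the list also lies outside this range. The gap is therefore not read as a division into classes. Above the gap were the pair at Spry4 and the Fgfr1 peak, at ranks 30, 56 and 65. Below it were the other 3 Spry4 peaks and both Spry2 peaks, at ranks from 851 to 1610. For each peak, the peaks of the list with a score within 10% of its own, itself included, were taken to compare widths. The 5 Spry4 peaks were wider than 66.7 to 96.5% of such peaks. The Spry4 peak scored 97.0 was wider than 96.5% of 434 such peaks, whose median was 730 bp. The one scored 400.1 was wider than 93.9% of 33, whose median was 877 bp. At Spry2 the peak nearer the gene was wider than 31.7% of 477 such peaks and the other wider than 47.5% of 335. The Fgfr1 peak was wider than 50.0% of 34.

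The peaks of the Sprouty genes mostly had a close neighbour and that of Fgfr1 did not. Another peak lay within 50 kb of 6 of the 8 peaks, and of 30.0% of all peaks in the list. The 6 were the 4 on the 3′ side of Spry4 and the pair at Spry2. Within each of these groups the peaks count as neighbours of each other, and all 8 were selected by position. Nothing is therefore read from 6 of 8 beside 30.0%. The Spry4 peak on the 5′ side missed this limit narrowly, at a gap of 50.6 kb, and the nearest neighbour of the Fgfr1 peak was 99.8 kb away.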

How the data were processed

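Peaks of the FLAG library over input were called by the authors with MACS, as the peak names in the deposited list show. The score is the authors' deposited value per peak, with no header, and no source used here gives its scale, the MACS settings or the aligner. CASAVA 1.4, FastQC and the build mm9 are named in the submitters' processing notes. No read counts were used, so the depth is unknown.

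The genes were chosen with earlier results of these data known. Their mm9 positions, in whole kb, are those of the stated rule. Starts were read as 0-based and are printed 1-based. Every peak with its midpoint within 100 kb of a gene is described, then the next peak on each side. The direction of transcription is general knowledge, and the RefSeq promoter table, which lists 1 of the 4 genes (Spry2), gives the same for it. Neighbouring genes are from the RefSeq table of GRCm38.p6, by order only. Background windows ran consecutively from the first to the last peak midpoint of each of the 19 autosomes. The counting was tested on simulated data. Motifs and other FGF pathway genes were planned and not analysed here, for want of an mm9 genome and annotation. Alternatives were other distance limits, overlap instead of midpoint, distance from the middle of the gene, a score of at least 100 and joining of peaks. Python 3.11.15, numpy 2.4.6, pandas 2.3.3 and matplotlib 3.10.9 were used.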

Additional observations from a re-analysis of the deposited data

How the results depend on the processing

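The total of 8 peaks was 3 with a limit of 10 kb and 4 with a score of at least 100, and from 6 to 9 under the other alternatives. At 10 kb, Spry4 had 1 peak, scored 87.55, since its highest peak lies just beyond that distance, and Spry2 had 1, scored 91.18. At 25 kb Spry2 also had 1 peak, scored 91.18. With a score of at least 100, Spry4 had 2 peaks and Spry2 had 1. At 200 kb Fgfr1 had 2 peaks. Fgf8 had 0 in each of the 8 alternatives, and Fgfr1 had its peak of 377 in each. Windows shifted by 0.5 of their length held at least 5 peaks in 0.182% of cases for Spry4. This shift was chosen after seeing the data. No paired analysis was possible because each group has 1 library, and for the same reason no library could be left out.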

Other observations

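The following counts were chosen after the peaks at Spry4 had been seen and are given as values, with no test. A set of 4 peaks with midpoints no farther apart than the 11.9 kb of those on the 3′ side of Spry4 occurred at 2 other places in the list. One was chr6:108197824-108210692, with a highest score of 216, and the other was chr11:22498666-22511077, with a highest score of 117. At Spry4 the highest was 478.

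The 2 highest Spry4 peaks were separated by a gap of 9.26 kb. Among the 56 peaks of the list with a score of at least 400, they were the 1 pair of neighbours no more than 100 kb apart. The limit of 400 lies just under the score of the lower peak of the pair, 400.1. With a score of at least 300 there were 3 such pairs among 114 peaks, and with at least 200 there were 16 among 303. The Spry4 pair was 1 of them each time.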
